A study of Homo sapiens with 5 samples.

Results

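The TNF ligand and receptor superfamilies were examined in NCI-H209, an established cell line from a human small-cell lung cancer (SCLC), after co-culture with human brain microvascular endothelial cells (HBMECs). The 47 members, 29 receptors and 18 ligands, were chosen by gene symbol and were looked up among the 64837 entries counted in each library, of which 58780 were genes of the primary assembly. The control group was 3 libraries of untreated NCI-H209 cells grown in RPMI-1640 with fetal bovine serum. The co-cultured group was 2 libraries of NCI-H209 cells kept for 24 h under HBMECs in the upper chamber of a Transwell insert with pores of 0.4 µm, so that the medium was shared and the tumor cells alone were collected. The control libraries are labelled untreated, and the labels do not say whether an empty insert or the medium of the HBMECs was used for them, nor whether replicates came from separate cultures, so the p-values may measure technical spread only. All libraries come from 1 cell line and 1 time point, and the comparison asked which genes of the tumor cells differed after culture with brain endothelium.

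TNF ligands are trimeric, mostly membrane-bound proteins, and many are shed from the cell surface as soluble cytokines. Their receptors cluster on binding and signal through either of a pair of modules: a cytoplasmic death domain, which recruits adaptors that can activate caspases, or short motifs that bind TRAF adaptors and lead to NF-kB and JNK signaling. Decoy receptors bind ligand without passing on the signal. Several receptors and ligands are themselves NF-kB targets, and most ligands are best known from immune cells.

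Counts on genes totalled 15457071 to 19157348 per library, and 66.4% to 69.3% of reads fell on no gene. The share of unmapped reads was 8.13% to 8.48% in control libraries and 15.9% and 16.8% in co-cultured libraries, a difference whose part in the results was not tested. The neuroendocrine identity of the line was seen in both groups, with INSM1, a transcription factor of neuroendocrine cells, at 579 ± 72.0 CPM (a gene's counts relative to the total of its library; SD, n = 3) in the control and 565 ± 4.79 CPM (SD, n = 2) in the co-cultured group. Of the 20 neuroendocrine markers, 19 were tested, 6 were higher and 3 lower, 31.6% and 15.8%, beside 18.4% and 15.0% of all genes tested. CHGA, usually high in such cells, was listed at no more than 1 count. Because RNF31, a gene that most cells use, was also listed at 0 in every library, a count of 0 is given below only as listed at 0. Of 20 endothelial markers, 10 were tested and 2 were higher, ESAM and ICAM2. PLVAP and MMRN1 were at 0 everywhere, and TIE1, ROBO4, EMCN, SOX17 and MMRN2 at no more than 2 counts. FLT1, TEK and KDR had the lowest log2 fold changes, -3.97, -1.85 and -1.30, and were not called. For FLT1, control replicates 1, 2 and 3 held 30, 28 and 0 counts, against 1 in each co-cultured library. TEK stood at 31, 24 and 0 against 6 and 3, and KDR at 37, 27 and 2 against 12 and 4. Control replicate 3 was the lowest library for each of these genes, so the groups overlapped. The summed CPM of the endothelial list was 18.1 to 29.1 in control and 24.3 in both co-cultured libraries. In the control group PECAM1 was at 0.484 ± 0.301 CPM and CDH5 at 0.411 ± 0.192 CPM (SD, n = 3), and in the co-cultured group these endothelial junction genes were at 0.855 ± 0.182 and 0.555 ± 0.243 CPM (SD, n = 2). What endothelial RNA might add to the results was not tested.

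The promoters of 3 members are shown because these genes carried the largest called changes: TNFRSF9 and TNFSF15, the receptor and the ligand with the largest rise, and TNFRSF1A, the receptor with the largest fall. Each is the 250 bases before the gene's start in RefSeq on build GRCh38.p14, written 5′ to 3′ along the minus strand of the gene. Capitals mark matches to NF-kB (searched by name as its 10-letter consensus) and to AP-1 (TGANTCA), searched on both strands together with the hypoxia response core (ACGTG).
TNFRSF9 promoter, chr1:7940840-7941089: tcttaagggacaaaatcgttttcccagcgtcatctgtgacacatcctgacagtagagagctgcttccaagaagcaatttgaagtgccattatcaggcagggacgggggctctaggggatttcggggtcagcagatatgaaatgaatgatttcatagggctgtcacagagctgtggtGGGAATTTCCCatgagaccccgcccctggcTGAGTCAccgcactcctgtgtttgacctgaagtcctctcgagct
TNFSF15 promoter, chr9:114792531-114792780: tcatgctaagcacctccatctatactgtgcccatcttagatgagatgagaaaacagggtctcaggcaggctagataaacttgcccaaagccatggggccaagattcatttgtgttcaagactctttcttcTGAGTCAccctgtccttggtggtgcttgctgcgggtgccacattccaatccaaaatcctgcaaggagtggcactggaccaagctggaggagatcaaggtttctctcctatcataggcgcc
TNFRSF1A promoter, chr12:6342077-6342326: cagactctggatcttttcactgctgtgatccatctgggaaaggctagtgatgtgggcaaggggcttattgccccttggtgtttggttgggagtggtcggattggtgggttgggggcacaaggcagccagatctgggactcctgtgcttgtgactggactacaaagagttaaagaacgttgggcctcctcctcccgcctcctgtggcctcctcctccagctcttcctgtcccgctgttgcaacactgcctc
The TNFRSF9 window held 2 overlapping NF-kB matches, 74 and 73 bases before the start, and 1 AP-1 match 44 bases before it. The TNFSF15 window held 1 AP-1 match 120 bases before the start. The TNFRSF1A window held no match to these 3 motifs. Of the 35116 RefSeq promoters of this length, 9.96% held the NF-kB, 6.57% the AP-1 and 18.5% the hypoxia response motif. A promoter was on hand for 30 of the 47 members. Among the 4 of them that rose, 1 held the NF-kB and 2 the AP-1 motif, and among the 3 that fell none held either. Of the 11 members tested without a call none held either motif, and of the 12 not tested 3 held each. A match is a run of letters only, binding was not measured, and other starts of TNFRSF9 and TNFSF15 lie upstream of these RefSeq starts in the GENCODE gene models.

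Of the 47 members, 26 passed the filter on low counts and were tested, 19 receptors and 7 ligands. A gene could pass through the group in which it was higher. In co-cultured cells 9 tested members were higher and 5 were lower (edgeR's quasi-likelihood test, adjusted p under 0.05 by Benjamini-Hochberg over all 20360 genes tested), and 12 were not called. These are 34.6% and 19.2% of the tested members, beside 18.4% of all genes tested that were higher and 15.0% that were lower. The share of members lower is near the background, and no test of the list was made. Under upper-quartile normalization the background itself turned from 3750 genes higher and 3059 lower to 3076 higher and 3929 lower, while 8 members were higher and 5 lower. At the threshold for differential expression genes (DEGs), a log2 fold change beyond 1 in either direction with an unadjusted p under 0.05, 6 members were upregulated and 5 downregulated, beside 5.44% and 5.01% of all genes tested. The median log2 fold change of the tested members was 0.54, beside -0.03 over all genes tested and 0.06 over protein-coding genes. With either co-cultured library left out, 6 members were higher and 3 lower, and without control replicate 2 there were 2 downregulated DEGs. The 14 called members were 12 receptors and 2 ligands. The CPM of the groups did not overlap for 17 tested members, 65.4%, beside 59.4% of all genes tested, and these 17 include the 14 called members.

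**Figure D1:**
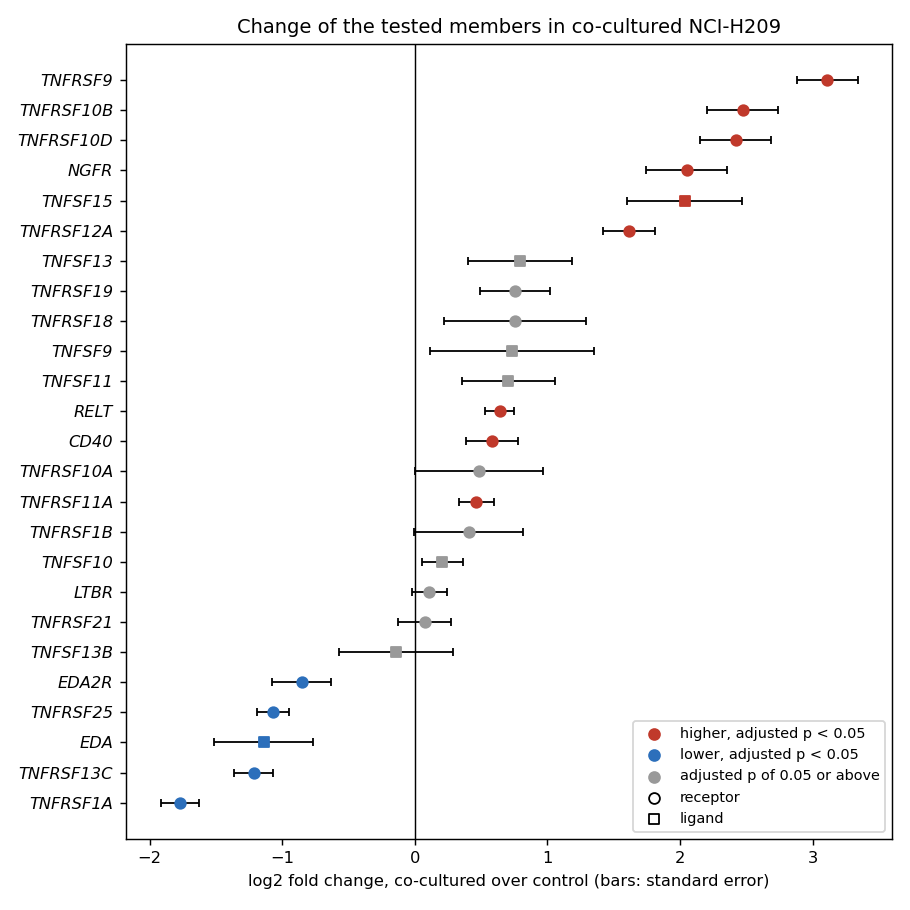
Log2 fold change of each tested member in co-cultured over control NCI-H209 cells (horizontal axis), with bars for the standard error, circles for receptors, squares for ligands, and color for the call at an adjusted p under 0.05. TNFRSF9 leads the 9 members that were higher, at 3.11, and TNFRSF1A is at the other end of the 5 that were lower, at -1.77. TNFRSF8 is left out because both co-cultured libraries were at 0.

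Among the 8 death-domain receptors, 6 were tested, 2 were higher and 2 were lower. Each is 33.3% of those tested, beside 18.4% and 15.0% of all genes tested. TNFRSF1A, the main receptor of TNF on most cells (ENSG00000067182.7, chr12:6328757-6342114 on GRCh38), was at 45.9, 39.4 and 35.2 CPM in control and at 10.8 and 12.7 CPM in co-cultured cells. Both co-cultured libraries were far below all control libraries, which was a 3.42-fold fall (log2 fold change -1.77, standard error 0.144, adjusted p = 6.72e-05). TNFRSF25, or DR3, the receptor of the ligand TNFSF15, was at 34.2, 42.9 and 40.1 CPM in control and 19.1 and 18.1 CPM in co-cultured cells. Its fall was 2.1-fold (log2 fold change -1.07, standard error 0.12, adjusted p = 0.000292), and the counts are those of its own strand, since 21.4% of the reads over TNFRSF25 lay on the opposite strand. TNFRSF1A and TNFRSF25 were the receptors with the highest levels per length in control cells, so the falls were seen in the most abundant members of the class.

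TNFRSF10B, or DR5, a death receptor of TRAIL, was at 1.33, 2.05 and 0.973 CPM in control and 8.25 and 7.79 CPM in co-cultured cells. The rise was 5.55-fold from a low level, with every co-cultured library above every control library (log2 fold change 2.47, standard error 0.268, adjusted p = 0.000249). NGFR, the neurotrophin receptor p75, was at 0.638, 0.498 and 0.717 CPM in control and 2.35 and 2.84 CPM in co-cultured cells. This 4.14-fold rise rested on 9 to 14 counts per control library and 43 counts in each co-cultured library (log2 fold change 2.05, standard error 0.305, adjusted p = 0.0012). TNFRSF10A, or DR4, the other death receptor of TRAIL, had 13, 13 and 6 counts across control libraries and 18 and 9 in co-cultured cells, so that the groups overlapped (log2 fold change 0.49, adjusted p = 0.472). TNFRSF21, or DR6, which is expressed in the nervous system among other tissues, was at 9.4 to 14.9 CPM in control and 11.5 and 12.6 CPM in co-cultured cells (log2 fold change 0.07, adjusted p = 0.805). FAS, the receptor of FASLG, and EDAR, a receptor of EDA, were listed at 0 in every library.

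The decoy receptors were represented by a single tested gene. TNFRSF10D, or DcR2, which binds TRAIL but has a truncated death domain, was at 1.28, 1.49 and 1.59 CPM in control and 9.78 and 5.75 CPM in co-cultured cells. The co-cultured libraries differed from each other more than the control libraries did, yet both were above all of these (5.36-fold, log2 fold change 2.42, standard error 0.269, adjusted p = 0.000281). TNFRSF10C, the decoy without a cytoplasmic tail, had 1 to 3 counts across control libraries and 7 and 1 in co-cultured cells and was not tested, and 39.3% of its exon length is shared with overlapping genes. TNFRSF6B and TNFRSF11B were listed at 0, and TNFRSF6B shares 100% of its exons with the readthrough gene RTEL1-TNFRSF6B, so its own reads could not be assigned. Thus a signaling and a decoy receptor of TRAIL both rose, and the decoys made up 44.2%, 41.3% and 64.5% of the summed level per length of the 4 TRAIL receptors TNFRSF10A to TNFRSF10D in control libraries and 60.6% and 49.2% in co-cultured libraries. The groups overlapped in this share.

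The 17 TRAF-binding receptors gave 12 tested genes, of which 5 were higher and 2 lower. These are 41.7% and 16.7%, beside 18.4% and 15.0% of all genes tested, so the share lower is near the background. TNFRSF9, or CD137, a costimulatory receptor of T and NK cells (ENSG00000049249.8, chr1:7915894-7943165), was at 8.99, 4.59 and 4.71 CPM in control and 53.3 and 52.2 CPM in co-cultured cells. It had the largest rise among the members, 8.64-fold (log2 fold change 3.11, standard error 0.228, adjusted p = 4.63e-05), and the log2 fold change ran from 2.95 to 3.50 when each library was omitted in turn. TNFRSF12A, or Fn14, the receptor of TWEAK, was at 3.03, 3.04 and 2.3 CPM in control and 9.18 and 7.93 CPM in co-cultured cells. It was 3.07-fold higher (log2 fold change 1.62, standard error 0.195, adjusted p = 0.000421). RELT, a receptor that binds TRAF1, was at 30.3, 27.4 and 26.3 CPM in control and 47.6 and 39.4 CPM in co-cultured cells, a smaller rise of 1.56-fold (log2 fold change 0.64, standard error 0.111, adjusted p = 0.00249).

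TNFRSF11A, or RANK, known from osteoclasts, and CD40, known from B cells and antigen-presenting cells, rose by less and with a less stable call. TNFRSF11A was at 27.3, 21.2 and 22.4 CPM in control and 35.1 and 30.1 CPM in co-cultured cells (log2 fold change 0.46, standard error 0.131, adjusted p = 0.0235). Its adjusted p ran from 0.0625 to 0.206 without control replicate 2, without control replicate 3 or without either co-cultured library. CD40 was at 6.11, 9.68 and 9.37 CPM in control and 12.0 and 13.2 CPM in co-cultured cells (log2 fold change 0.58, standard error 0.197, adjusted p = 0.0469). The call of CD40 was lost under upper-quartile normalization (adjusted p = 0.0897), with at least 10 counts in every library (0.054), with the opposite strand subtracted (0.0808), over protein-coding genes only (0.0843), without control replicate 3 (0.0594) and without co-cultured replicate 1 or 2 (0.15 and 0.232).

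The fall in this class was led by TNFRSF13C, the receptor of BAFF that supports B cell survival, which was at 24.6, 32.6 and 31.4 CPM in control and 12.5 and 12.9 CPM in co-cultured cells. The groups were well apart (2.32-fold lower, log2 fold change -1.22, standard error 0.144, adjusted p = 0.000375). EDA2R, a receptor of the A2 form of EDA and a known p53 target, was at 3.93, 4.15 and 5.22 CPM in control and 2.46 and 2.44 CPM in co-cultured cells (log2 fold change -0.85, standard error 0.225, adjusted p = 0.0178). The adjusted p of EDA2R was 0.118 and 0.106 without co-cultured replicate 1 or 2, 0.0701 without control replicate 3 and 0.0903 with a replicate block. TNFRSF8, or CD30, had 22, 13 and 0 counts across control libraries and 0 in both co-cultured libraries, so that the groups overlapped at 0. The same 2 control libraries held 15 reads each on the opposite strand of TNFRSF8, and the other libraries none. Against a floor of 3 counts per library the control mean was at least 3.48-fold higher than co-cultured cells, a bound that was 1.98 without control replicate 1 and 5.22 without control replicate 3, which itself was at 0. TNFRSF8 met the DEG threshold with an adjusted p of 0.0648, so no change was called. Its adjusted p was 1.5e-05 under a filter of 1 count in any library, 0.000425 with a replicate block and 0.00393 without control replicate 3, but 0.239 and 0.208 without co-cultured replicate 1 or 2. DESeq2 gave TNFRSF8 no adjusted p, and without control replicate 1 or 2 it did not pass the filter on low counts.

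The other TRAF-binding receptors were not called. TNFRSF19, or TROY, known from neural and epithelial development, was at 2.07, 2.27 and 1.74 CPM in control and 2.73 and 4.16 CPM in co-cultured cells without overlap (log2 fold change 0.76, adjusted p = 0.0549). It passed under a filter of 1 count in any library (adjusted p = 0.0287), with unstranded counts (0.0436) and without control replicate 1 (0.0308). LTBR, the lymphotoxin beta receptor, was at 23.6 to 29.7 CPM in control and 25.6 and 30.5 CPM in co-cultured cells (log2 fold change 0.11, adjusted p = 0.556), and 60.0% of the reads over LTBR lay on the opposite strand. TNFRSF1B, the second receptor of TNF, had 9 to 13 counts across control libraries and 17 and 10 in co-cultured cells (log2 fold change 0.41, adjusted p = 0.481). TNFRSF18, or GITR, had 4 to 12 counts across control libraries and 10 and 13 in co-cultured cells (log2 fold change 0.75, adjusted p = 0.31). TNFRSF4 was not tested at 1 to 6 counts and TNFRSF13B at no more than 1 count. TNFRSF14, TNFRSF17 and CD27 were listed at 0, while 13 to 59 reads per library lay on the opposite strand of TNFRSF17 and 86 to 186 on that of CD27.

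**Figure D2:**
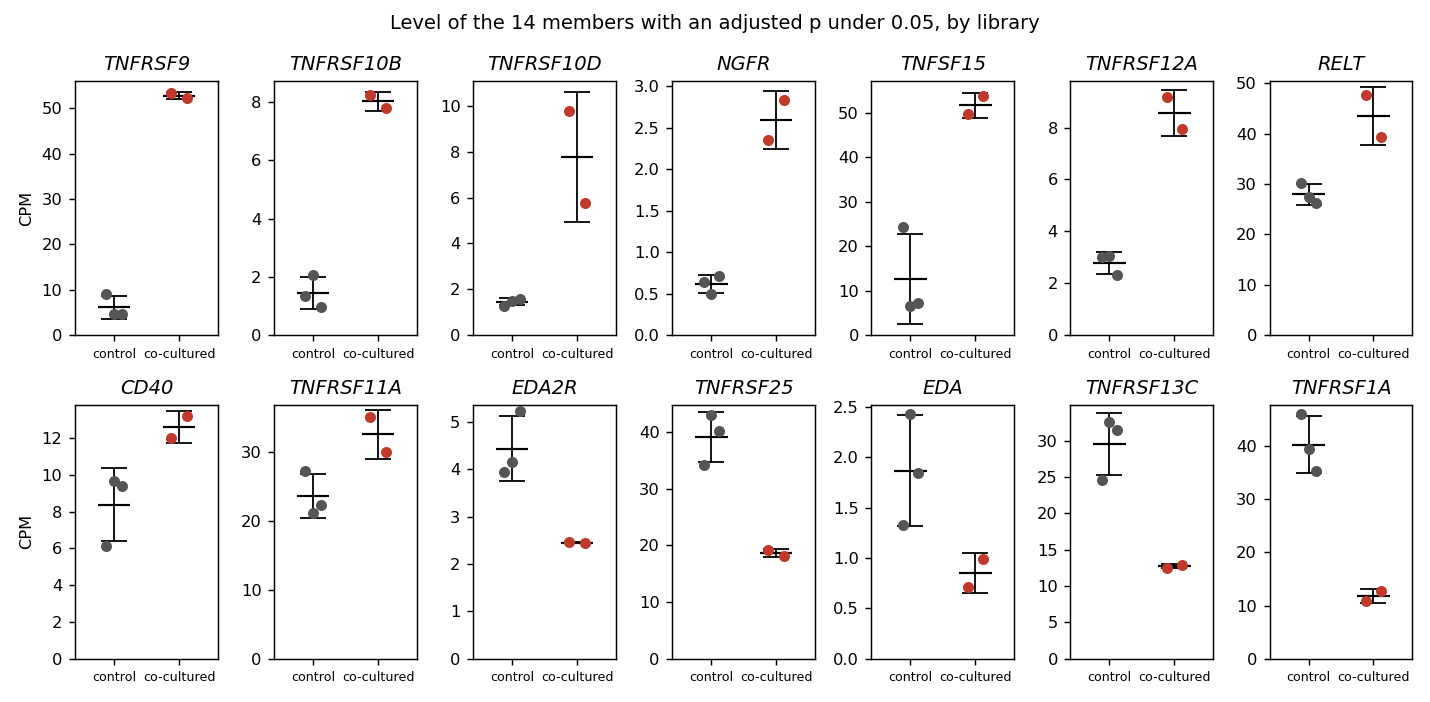
CPM of the 14 called members in each library (vertical axes, from 0 and separate for each gene), with gray points for the 3 control and red points for the 2 co-cultured libraries, a line for the mean and bars for the SD. In every panel the control and the co-cultured points are apart, and control replicate 1 of TNFSF15, at 24.2 CPM, is well above the other controls.

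Ligands were fewer and lower. Of the 18 ligands, 7 were tested, 1 was higher and 1 lower. Each is 14.3% of those tested, beside 18.4% higher and 15.0% lower over all genes tested. TNFSF15, or TL1A, the ligand of TNFRSF25, first described as a product of vascular endothelial cells (ENSG00000181634.7, chr9:114784635-114806126), was at 24.2, 6.52 and 7.12 CPM in control and 49.7 and 53.7 CPM in co-cultured cells. Control replicate 1 was over the other controls by more than these differed from each other, and both co-cultured libraries were above it. This library also stood apart over all genes tested. On their second principal component, with 18.8% of the variance, it was at 47.1 and the other controls at -11.97 and -29.35. Without it 5295 genes were higher and 4602 lower, beside 3750 and 3059 with all libraries. The rise of TNFSF15 was 4.1-fold (log2 fold change 2.03, standard error 0.435, adjusted p = 0.0069). Without control replicate 1 the log2 fold change of TNFSF15 was 2.92 (adjusted p = 2.29e-11), and without co-cultured replicate 1 or 2 the adjusted p was 0.051 and 0.059. Counts of TNFSF15 were 813 and 910 in the co-cultured libraries. In bulk RNA, a higher level in each cell and a larger number of cells with the transcript cannot be told apart.

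EDA, the ectodysplasin ligand of EDAR and EDA2R, was at 1.33, 2.43 and 1.84 CPM in control and 0.711 and 0.991 CPM in co-cultured cells. It fell 2.21-fold (log2 fold change -1.14, standard error 0.373, adjusted p = 0.042). The call of EDA was lost with DESeq2 (adjusted p = 0.101), with a replicate block (0.0646), with the opposite strand subtracted (0.0553), without control replicate 2 or 3 (0.126 and 0.0819) and without co-cultured replicate 1 or 2 (0.269 and 0.113). TNFSF10, or TRAIL, the ligand of TNFRSF10A to TNFRSF10D, was at 14.6, 12.5 and 11.8 CPM in control and 16.7 and 13.1 CPM in co-cultured cells. The groups of TNFSF10 overlapped and no difference was called (log2 fold change 0.21, standard error 0.152, adjusted p = 0.323).

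Of the low ligands that were tested, TNFSF13, or APRIL, had 8 to 11 counts across control libraries and 16 and 15 in co-cultured cells (log2 fold change 0.80, adjusted p = 0.15). TNFSF11, or RANKL, the ligand of TNFRSF11A, had 12 to 14 counts across control libraries and 24 and 15 in co-cultured cells (log2 fold change 0.70, adjusted p = 0.153). TNFSF9, the ligand of TNFRSF9, had 5 to 12 counts across control libraries and 6 and 20 in co-cultured cells (log2 fold change 0.73, adjusted p = 0.393). The co-cultured libraries of TNFSF9 lay on either side of the middle of the controls, so the large rise of its receptor had no called counterpart in the ligand. TNFSF13B, or BAFF, the ligand of TNFRSF13C, had 11 to 24 counts across control libraries and 15 and 13 in co-cultured cells (log2 fold change -0.14, adjusted p = 0.826).

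The remaining ligands were too low to test. CD70 had 4, 2 and 1 counts across control libraries and 6 and 8 in co-cultured cells, and under a filter of 1 count in any library it was not called (log2 fold change 1.71, adjusted p = 0.132). TNFSF4 had 7 to 14 counts across control libraries and 6 and 8 in co-cultured cells, TNFSF8 1 to 3 counts, TNFSF12 at most 2, and TNFSF18 and FASLG at most 1. CD40LG and TNFSF14 were listed at 0. TNF, LTA and LTB were at 0 on the primary assembly, and their haplotype entries held 0 to 5 counts for TNF, at most 1 for LTA and at most 2 for LTB. A floor of 3 counts corresponded to 0.157 to 0.194 CPM of the library totals on genes, before TMM scaling. The zeros of TNF, LTA and LTB are as listed and are not read as low expression. TNFSF12 and TNFSF13 share 29.4% and 55.5% of their exon length with the readthrough gene TNFSF12-TNFSF13, whose reads the counting could not assign to either.

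Per length of exon, the order of the receptors changed. In control cells TNFRSF1A led at 10.0 ± 1.35 CPM per kb of exon (SD, n = 3), followed by TNFRSF25 at 9.12 ± 1.04 and TNFRSF13C at 7.49 ± 1.10 CPM per kb. The libraries of TNFRSF1A and TNFRSF25 overlapped, as did those of TNFRSF25 and TNFRSF13C, so these neighbours in the order were not apart beyond their spread. RELT, LTBR, CD40, TNFRSF21 and TNFRSF11A came next at 4.42 to 2.63 CPM per kb, and TNFRSF9 was the 11th receptor at 0.963 ± 0.396. In co-cultured cells TNFRSF9 led at 8.33 ± 0.123 CPM per kb (SD, n = 2), above RELT at 6.88 ± 0.914, CD40 at 4.98 ± 0.347 and TNFRSF12A at 4.63 ± 0.48. TNFRSF25, TNFRSF13C and TNFRSF1A were then 6th, 9th and 10th, at 4.34, 3.22 and 2.94 CPM per kb. The sum over all receptors was 48.3 to 51.5 CPM per kb in control and 52.8 and 54.7 CPM per kb in co-cultured libraries. TNFRSF1A, TNFRSF25 and TNFRSF13C held 19.9%, 18.2% and 14.9% of that sum in control cells, and TNFRSF9 held 15.5% of it in co-cultured cells.

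Among ligands, TNFSF10 led in control at 3.73 ± 0.426 CPM per kb (SD, n = 3), with TNFSF15 second at 1.6 ± 1.27, and in co-cultured cells TNFSF15 led at 6.56 ± 0.356 CPM per kb (SD, n = 2), with TNFSF10 at 4.3 ± 0.729. All other ligands were under 1 CPM per kb in every library. The summed level of the ligands was 5.76 to 8.93 CPM per kb in control and 13.0 and 13.2 CPM per kb in co-cultured libraries. TNFSF15 made up 21.1% of that sum in control and 50.1% in co-cultured cells. In control cells the receptor TNFRSF25 was thus at a higher level per length than its ligand TNFSF15, and in co-cultured cells at a lower one (9.12 and 1.6 against 4.34 and 6.56 CPM per kb).

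**Figure D3:**
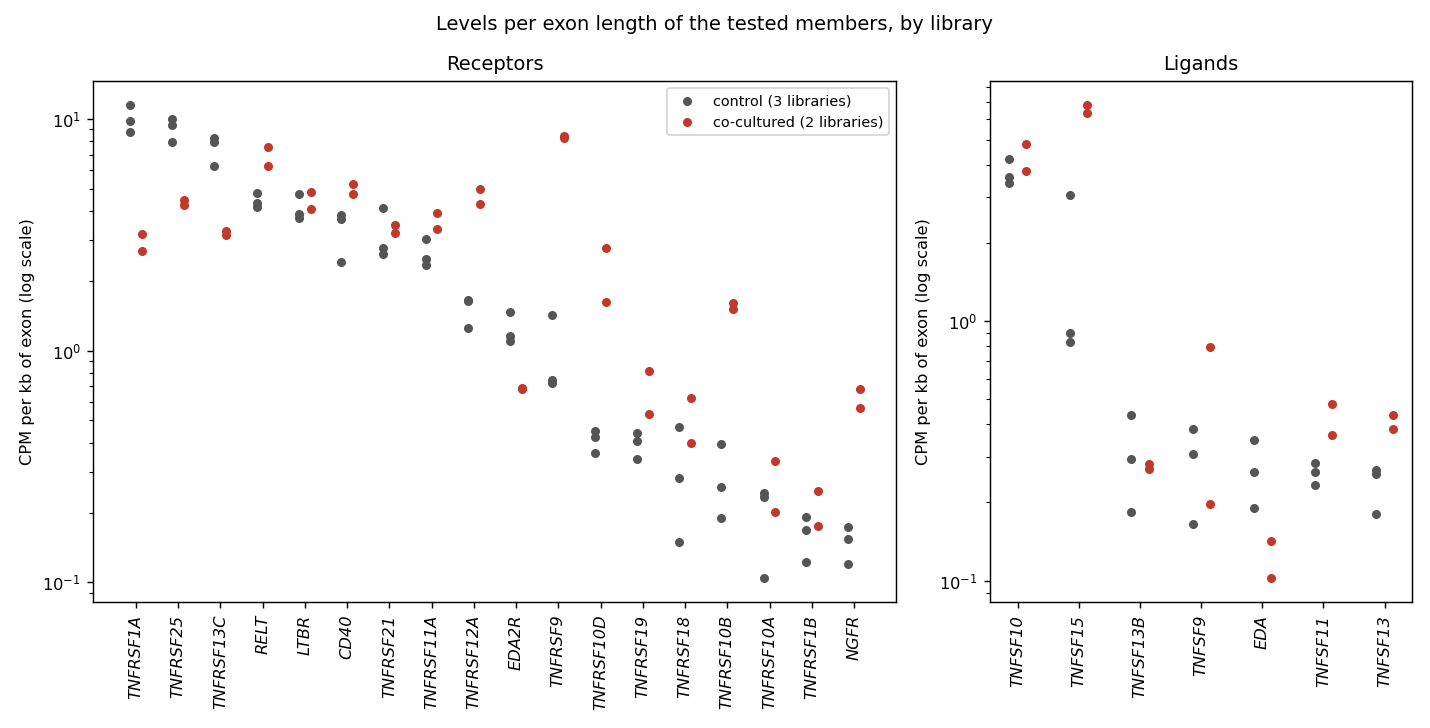
CPM per kb of exon of the tested receptors and ligands in each library (log vertical axis), ordered by the control mean, with gray points for the 3 control and red points for the 2 co-cultured libraries. TNFRSF9 moves from the middle of the receptors to 8.33 CPM per kb, above the falling TNFRSF1A, TNFRSF25 and TNFRSF13C, and TNFSF15 passes TNFSF10 among the ligands. TNFRSF8, at 0 in 3 libraries, is not drawn.

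The other genes of the pathway were counted in 4 lists that hold 118 genes together, of which 104 were tested, 63 were higher and 9 were lower, and the median log2 fold change was 0.38. With co-cultured replicate 1 or 2 left out, 34 and 35 were higher and 2 and 1 lower. The 32 adaptors and kinases, which carry the signal from the receptor, gave 31 tested genes with 9 higher and 6 lower, 29.0% and 19.4%, at a median of 0.10, beside 18.4% and 15.0% of all genes tested. MAP3K8, a kinase upstream of ERK, rose (log2 fold change 1.26, adjusted p = 0.000438), as did TAB2, the ubiquitin-binding partner of TAK1 (0.58, adjusted p = 0.000457), and the JNK gene MAPK9 (0.35, adjusted p = 0.00518). IKBKB, the kinase that phosphorylates IkB in the canonical pathway, fell by 0.60 on the log2 scale (adjusted p = 0.00387). In this list 14 genes were higher without control replicate 1, and 3 and 2 without co-cultured replicate 1 or 2. The number lower was 0 without either co-cultured library and 1 without control replicate 2 or 3, with DESeq2, with unstranded counts and with a replicate block. Without co-cultured replicate 1 or 2 the adjusted p was 0.0504 and 0.0544 for IKBKB and 0.064 and 0.0578 for MAPK9.

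The 22 death and survival effectors gave 21 tested genes, 13 higher and 1 lower, at a median of 0.33. These are 61.9% and 4.76%, beside 18.4% and 15.0% of all genes tested. Both directions of function were among those that rose. The inhibitors of apoptosis BIRC3 and XIAP rose by 1.51 (adjusted p = 7.4e-05) and 0.44 (adjusted p = 0.00371) on the log2 scale. CASP8, the initiator caspase at death receptors, rose by 0.81 on the log2 scale (adjusted p = 0.00229). The gene that fell was CFLAR, which encodes the caspase-8 inhibitor FLIP (log2 fold change -0.35, adjusted p = 0.00677). Without co-cultured replicate 1 or 2, 5 and 6 genes of this list were higher and none lower, and the adjusted p of CFLAR was 0.0772 and 0.0912 (0.0743 with a replicate block).

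The 23 genes of ubiquitin editing and of shedding gave 21 tested genes, 13 higher and 2 lower, at a median of 0.31. These are 61.9% and 9.52%, beside 18.4% and 15.0% of all genes tested. TNFAIP3, the A20 enzyme that ends NF-kB signaling, rose by 1.82 (adjusted p = 2.2e-05), and RBCK1, a subunit of the linear ubiquitin ligase, rose by 0.82 (adjusted p = 0.000244) on the log2 scale. The genes of ligand processing moved both ways: FURIN, a proprotein convertase, rose by 1.09 (adjusted p = 5e-05), and SPPL2B, an intramembrane protease that cuts the remnant of TNF, fell by 1.04 (adjusted p = 4.6e-05) on the log2 scale. Without either co-cultured library 6 genes of this list were higher.

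The 45 NF-kB target genes gave the largest shift of the lists. Of the 35 tested, 31 were higher, 88.6%, beside 18.4% of all genes tested, at a median log2 fold change of 1.51. The list was chosen with earlier results of these data known. Genes such as SELE, ICAM1, CXCL5 and LIF, with at most 6 counts in any control library, passed the filter through the co-cultured group. This favors rises in the count. With at least 10 counts in every library, 28 were tested and 24 were higher. All 35 log2 fold changes were above 0, so none was lower at an unadjusted p under 0.05 either. DESeq2 was run without this filter and took in the 41 genes of the list with any count. Its own default filter can leave genes of low mean count without an adjusted p, so not all 41 could necessarily be called. By DESeq2 30 were higher and none was lower, and 23 to 32 were higher when each library was omitted in turn. BCL3, an IkB protein that acts in the nucleus, rose by 1.93 (adjusted p = 2.1e-05), and the neutrophil chemokine CXCL1 rose by 2.56 (adjusted p = 7.9e-05). TNFAIP3 and BIRC3, which rank with them, are held by this list and by those above. SELE, also an endothelial adhesion gene, had 0, 2 and 2 counts across control libraries and 14 and 13 in co-cultured cells (log2 fold change 3.39, adjusted p = 0.00514). Its control counts were all under the floor of 3 counts, so the size of this rise is uncertain. Without co-cultured replicate 1 or 2 the adjusted p of SELE was 0.0547 and 0.0561.

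**Figure D4:**
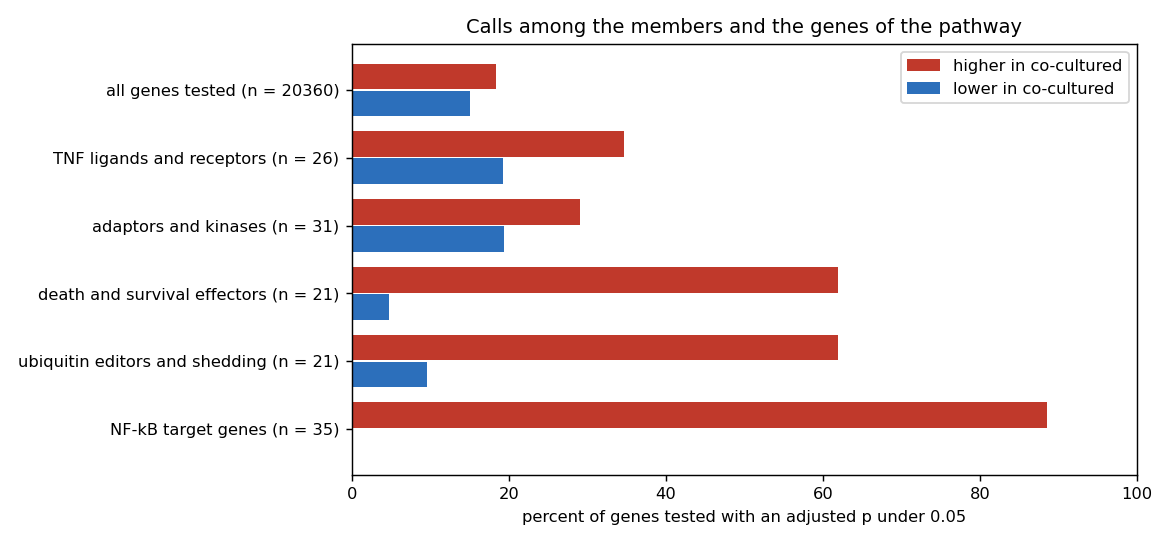
Percent of the genes tested that were higher (red) and lower (blue) in co-cultured cells at an adjusted p under 0.05 (horizontal axis), for all genes tested, the members and the 4 pathway lists, with the number tested beside each name. The bar of NF-kB target genes that were higher reaches 88.6%, that of the members 34.6% and that of all genes 18.4%.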

How the data were processed

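Total RNA of NCI-H209 cells was depleted of rRNA and made into directional libraries. Per the labels, the submitters' processing notes name CASAVA 1.8, STAR 2.6.1b, DESeq2 and build GRCh38. The authors deposited raw read counts per gene and strand for each library, without normalization, and the counts of the gene's own strand (92.3% to 93.1% of assigned reads) were used. A second deposited table holds the authors' comparison. Only its gene names were used, and its fold changes and p-values were not. Of the 47 members, 33 matched it by a primary entry, 3 by a haplotype entry only and 11 only by the GENCODE annotation. Rows that name no gene, with 66.4% to 69.3% of reads, were left out.

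Low counts were filtered with edgeR's filterByExpr (edgeR 4.0.16, R 4.3.3). After TMM scaling the groups were tested by quasi-likelihood in edgeR over the 20360 genes left, 187 of them on patch sequences, and p-values were adjusted by Benjamini-Hochberg. The biological coefficient of variation was 10.2%. CPM are scaled by TMM, and levels between genes were compared per kb of exon. An exact permutation test of 3 libraries against 2 cannot give a two-sided p under 0.2. Steps were tested on simulated data. The floor of 3 counts covers counting error only.

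The members and lists were chosen with earlier results of these data known. Every called member was named with its values, and for each pathway list the 4 genes with the smallest p, of which some are not reported here. CFLAR and SELE were named after their values were seen. Alternatives were DESeq2 1.42.0, upper-quartile or median-ratio scaling in edgeR, a filter of 1 count in any or of 10 counts in all libraries, omission of each library, a replicate block, unstranded counts, subtraction of the opposite strand, summed patch entries and protein-coding genes only. Plots used matplotlib 3.10.9.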

Additional observations from a re-analysis of the deposited data

Results flagged for a closer look

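Reads on the strand opposite to a gene were not used in the comparisons of the report, other than in alternatives to them. For 3 members they numbered over 3 in both co-cultured libraries and, relative to the library total, were higher in both than in any control library. TNFRSF1A had 30, 39 and 37 such reads in control and 53 and 39 in co-cultured cells, or 1.57, 2.25 and 1.93 against 2.80 and 2.52 CPM of the own-strand total, while its own strand fell. TNFSF8 had 6, 2 and 2 opposite-strand reads in control and 6 and 17 in co-cultured cells, or 0.313, 0.115 and 0.105 against 0.317 and 1.10 CPM. TNFSF13 had 47, 41 and 39 in control and 51 and 40 in co-cultured cells, more than on its own strand in every library. None of these differences was tested.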

How the results depend on the processing

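TNFRSF9, TNFRSF1A, TNFRSF10B, TNFRSF10D, TNFRSF25, TNFRSF13C, TNFRSF12A and RELT were called in the same direction under all 15 alternatives, and NGFR under those that could test it, which leaves out the filter of at least 10 counts in every library. Of 375 member values under the alternatives, 337 kept direction and side of the threshold, 24 lost the call, 6 gained it and 8 turned direction. The values that turned were those of TNFRSF10A with unstranded counts (-0.29), TNFRSF21 under upper-quartile normalization (-0.0002), TNFSF13B with the opposite strand subtracted (0.0156) and, with a library omitted, TNFRSF21 (range -0.0426 to 0.3124), LTBR (-0.0151 to 0.2415), TNFSF9 (-0.5283 to 1.4648) and TNFSF13B (-0.4036 to 0.1980), none of them called. The number of members was 6 to 10 higher and 3 to 5 lower, with 6 to 8 upregulated and 2 to 5 downregulated DEGs, when each library was left out. Of the pathway genes 34 to 73 were then higher and 1 to 11 lower. In the same fits, adaptors and kinases had 2 to 14 higher and 0 to 7 lower, death and survival effectors 5 to 16 and 0 to 1, ubiquitin editors and shedding 6 to 14 and 1 to 3, and NF-kB targets 23 to 32 higher. The number of pathway genes lower was 4 with DESeq2 or unstranded counts, and that of adaptors and kinases lower was 1 with either. Same-numbered libraries deviated from their group means with correlations of -0.109 and -0.0653. The deviations of the 2 co-cultured libraries mirror each other by construction, so these values cannot show whether replicate numbers pair the samples. With a replicate block, 9 members were higher and 4 lower, 3 pathway genes were lower, and the lists of adaptors, death effectors and ubiquitin editors had 5, 7 and 6 genes higher, with 1 adaptor and 0 death effectors lower. The cause of these shifts was not tested. Over all genes, 2771 were then higher and 2053 lower. For 17 members no more than 3 counts were listed in any library, 12 of them at 0 in every library, and no difference was detectable for these 17.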
